A study of Arabidopsis thaliana with 6 samples.

Results

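The xyloglucan endotransglucosylase/hydrolase (XTH) genes encode secreted enzymes of the plant cell wall. To examine this family in the roots of the spy-3 mutant, every gene whose symbol or synonym is XTH followed by a number was taken from the annotation, and those with a probe set of their own on the ATH1 array were kept. This gave 10 of 33 XTH genes. In all, 13286 named genes had a probe set to themselves. The genes are XTH16, XTH18, XTH19, XTH20, XTH21, XTH26, XTH27, XTH29, XTH32 and XTH33, each with 1 probe set. The other 23 family members, TCH4 (XTH22) and the root gene XTH14 among them, are not analysed here, since the annotation used assigns no probe set to them alone. It names no gene for 8730 of the 22746 probe sets, so the array may measure some of these genes.

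Whole roots of Columbia (Col) seedlings of 7 d were compared on 6 arrays, 3 for wild type and 3 for spy-3, a mutant of SPINDLY (SPY) in the same Col background. SPY is an O-linked sugar transferase of the nucleus and cytosol that was first known as a repressor of gibberellin signaling. All seedlings were grown on vertical plates of MS medium without further treatment, and spy-3 is a single allele. The methods call the replicates biological and do not state if each was a harvest of its own. The p-values therefore cover the spread between these arrays only.

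Xyloglucan is a glucan with side chains that binds to cellulose in the primary wall. XTH enzymes cut a xyloglucan chain and join the cut end to another chain, or, in some members, to water. In growing roots they act where cells elongate and where root hairs form, together with expansins, which loosen the wall without cutting it. Since growth of the wall is controlled by hormones, stress and touch, single XTH genes are known for very different responses.

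The measured value is the MAS5 signal of a probe set, a brightness on a linear scale to which short oligonucleotides of 1 transcript contribute. The median signal of an array was 85.4 to 87.2, and arrays of the same genotype correlated with a Pearson coefficient of 0.958 to 0.966 across probe sets on the log2 scale, against 0.952 to 0.963 for arrays of different genotypes. The signal of SPY was 251.7 to 292.3 over the 3 wild type arrays and 244.9 to 316.7 over the 3 spy-3 arrays (limma, adjusted p = 0.728). A mutant allele may still be transcribed, so this level is no check of the genotype labels. The 4 measured root hair markers of 13 listed were bright in all arrays, with the dimmest, GH9C1, at 564.3 or above. The listed markers of the root cap, the meristem and the xylem were not matched to a probe set by the annotation and are not analysed here. RNA came from whole roots, so fewer cells of a type and less RNA per cell cannot be told apart.

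Of the 10 XTH genes, 4 were higher in spy-3 (XTH16, XTH18, XTH19 and XTH33), 0 were lower and 6 did not pass the threshold, which was a limma p under 0.05 after adjustment over all probe sets. Of all 22746 probe sets, 2.64% were higher and 3.13% were lower by the same rule. Increases were 1.26-fold to 2.21-fold. At an unadjusted p of 0.05, limma gave 5 higher and 2 lower members, and a one-way analysis of variance gave 4 and 1. The estimates of the 10 genes ran from -0.79 to 1.23 on the log2 scale, with 6 above 0 and 4 below. The highest is that of XTH29, whose signal was at most 9.2 in any array and whose interval spans 0. The next is XTH33 at 1.15. The median log2 fold change of the 10 genes was 0.33, against 0.02 over all probe sets. The members were chosen with earlier results of these data known, so the counts and the median are a description only.

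**Figure D1:**
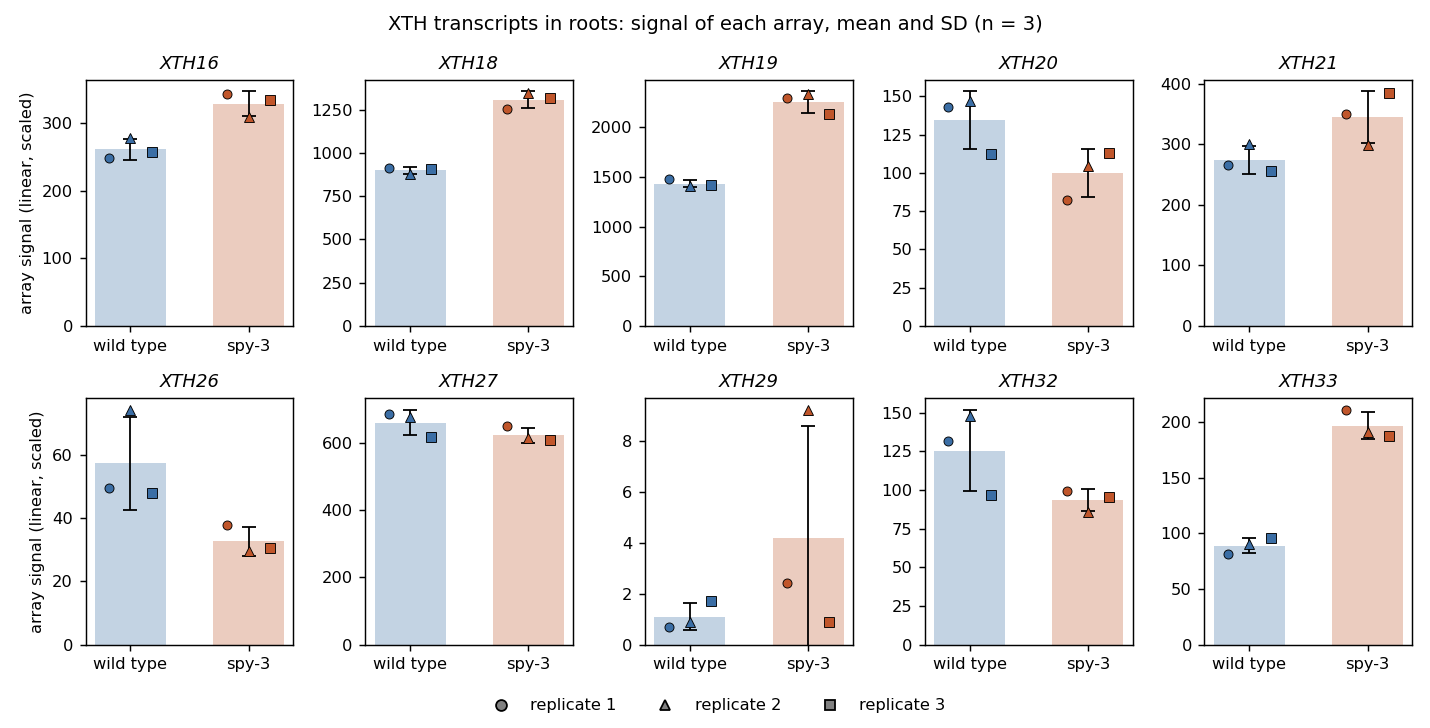
Array signal (linear scale, from 0, with an axis of its own for each gene) of the 10 XTH genes in wild type and spy-3 roots. Points are single arrays, bars the mean and lines the SD of 3 arrays; XTH18, XTH19, XTH33 and XTH16 have all 3 spy-3 arrays above all 3 wild type arrays, and XTH26 has them below.

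XTH18, XTH19 and XTH20 belong to a subgroup of closely related genes, with XTH17, that is expressed mainly in roots. XTH18 and XTH19 are neighbours on chromosome 4, and XTH24 lies on the other side of XTH18. XTH18, which is known for a role in root elongation, had signals of 915.5, 878.1 and 907.5 in the 3 wild type arrays and 1256.8, 1348.7 and 1319.5 in the 3 spy-3 arrays. Every spy-3 array was above every wild type array, and the gap between the genotypes was wider than the range within either. The increase was 1.45-fold (95% interval 1.36 to 1.55; adjusted p = 0.0013 from limma).

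XTH19, whose product is an active transglucosylase, had signals of 1475.2, 1405.0 and 1422.5 in wild type and 2293.4, 2336.2 and 2134.3 in spy-3. Here too the genotypes were widely separated, with spy-3 replicate 3 the lowest of the mutant arrays. XTH19 was 1.57-fold higher (95% interval 1.45 to 1.70; adjusted p = 0.00119 from limma). The coding sequences of these neighbours are alike, and although neither probe set carries the suffix that marks shared probes, the probes were not checked here, so that part of each signal may come from the other gene.

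XTH20, the third measured gene of the subgroup, is located on chromosome 5 and is known, with XTH19, for the rejoining of cut stems. Its signals were 143.1, 147.1 and 112.6 in wild type and 82.5, 104.5 and 112.8 in spy-3. The genotypes overlapped only by the highest spy-3 array, which was just above the lowest wild type array. The log2 fold change of -0.43 (95% interval -0.81 to -0.05) did not pass (adjusted p = 0.208 from limma).

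The log2 ratio of 2 of these genes within each array was also taken, as a description with no test, because the pairs were chosen after the values were seen. The ratio of XTH18 to XTH20 was 2.58 to 3.01 in wild type and 3.55 to 3.93 in spy-3, a difference of 0.97 between the means. The ratio of XTH19 to XTH20 was 3.26 to 3.66 and 4.24 to 4.80, a difference of 1.08. Neither of these ratios overlapped between the genotypes. The ratio of XTH18 to XTH19 was -0.69 to -0.65 in wild type and -0.87 to -0.69 in spy-3, a difference of -0.11 between the means. Its ranges did not overlap either, though their nearest edges are the same after rounding. A lack of overlap therefore does not set the ratios to XTH20 apart. How often ratios of other genes lack overlap was not counted.

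XTH33, whose product has a predicted membrane anchor that is unusual for the family, had the largest increase among the members that passed. Its signals were 81.5, 90.1 and 95.4 in wild type and 211.0, 191.6 and 188.0 in spy-3. The wild type arrays lay close to the median signal of an array, and all 3 spy-3 arrays were far above it. The mean was 89.0 ± 7.0 (SD, n = 3) in wild type, and in spy-3 it was 196.9 ± 12.4 (SD, n = 3), an increase of 2.21-fold (95% interval 1.91 to 2.56; adjusted p = 0.00148 from limma). With XTH19, it was 1 of 2 members that changed at least 1.5-fold with an adjusted p under 0.01. Over all probe sets, 0.435% passed this stricter threshold upwards and 0.8% downwards. XTH18 missed this threshold by its fold change only.

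**Figure D2:**
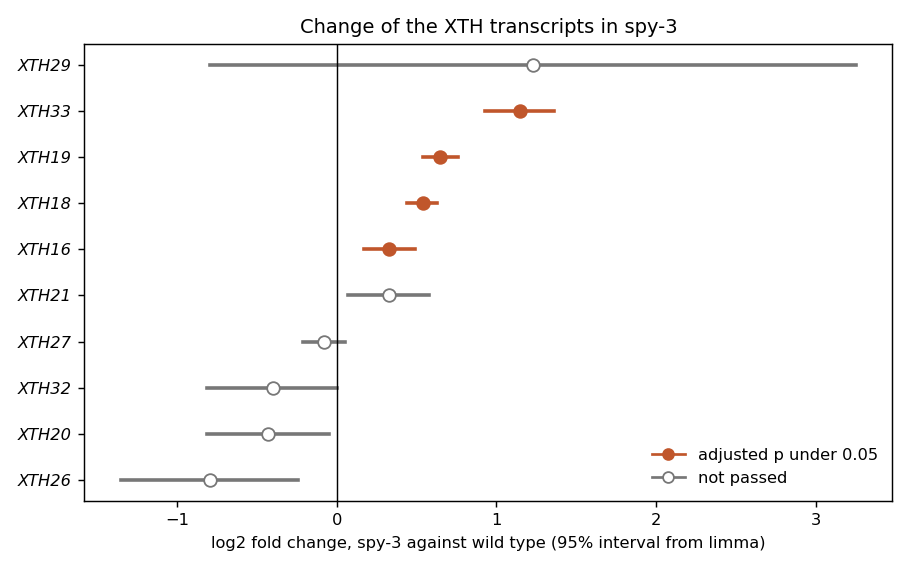
Log2 fold change (spy-3 against wild type, horizontal axis) of the 10 XTH genes with the 95% interval from limma, n = 3 arrays per genotype. The 4 filled points passed an adjusted p of 0.05, with XTH33 at 1.15, XTH19 at 0.65, XTH18 at 0.54 and XTH16 at 0.33; the open points did not pass, and XTH29 has by far the widest interval.

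XTH16 had the smallest increase of the 4. Its signals were 248.4, 278.7 and 257.5 in wild type and 343.6, 308.4 and 334.1 in spy-3, again without overlap. It was 1.26-fold higher (95% interval 1.13 to 1.40; adjusted p = 0.0381 from limma). This call was lost when any 1 of the 6 arrays was left out (adjusted p from 0.0593 to 0.129), and in limma without a mean-variance trend (adjusted p = 0.118) or by the analysis of variance (adjusted p = 0.12). XTH18, XTH19 and XTH33 passed an adjusted p of 0.05 with each array left out in turn.

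XTH21, a gene known for primary root growth, had an estimate like that of XTH16 with more spread between arrays. Its signals were 265.0, 300.0 and 256.0 in wild type and 350.4, 299.3 and 383.7 in spy-3. The genotypes overlapped, because spy-3 replicate 2 was just below wild type replicate 2. The log2 fold change of 0.33 (95% interval 0.07 to 0.58) did not pass (adjusted p = 0.154 from limma).

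XTH26, which is expressed in root hairs, was the only member with all 3 spy-3 arrays below all 3 wild type arrays. It had signals of 49.5, 74.1 and 48.0 in wild type and 37.9, 29.4 and 30.5 in spy-3, all under the median of an array. Wild type replicate 2 stood above the other 2 wild type arrays. The log2 fold change of -0.79 (95% interval -1.35 to -0.24) did not pass (adjusted p = 0.12 from limma). On the same arrays, all 4 measured root hair markers of 13 listed were lower in spy-3, against 3.13% of all probe sets. These markers are the expansin genes EXPA7 and EXPA18, the glucanase gene GH9C1 and the peroxidase gene AT1G30870, with a median log2 fold change of -0.40. Their summed signal was 5456.8 to 5954.7 in wild type and 4251.2 to 4532.6 in spy-3, and none was at 0. Whether root hairs had a part in the signals of the XTH genes was not tested.

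The other 3 members, XTH27, XTH32 and XTH29, did not pass, and their genotypes overlapped. XTH27, known from water-conducting cells of leaf veins, had signals of 686.9, 676.9 and 617.8 in wild type and 648.8, 613.9 and 607.2 in spy-3. Its interval was narrow, from -0.21 to 0.05 in log2 fold change (limma, adjusted p = 0.479). XTH32 belongs to the branch of the family whose members can act as hydrolases. Its signals were 131.7, 148.2 and 96.6 in wild type and 99.1, 85.7 and 95.7 in spy-3, with wild type replicate 3 inside the range of the mutant. The log2 fold change was -0.40 (adjusted p = 0.261 from limma). XTH29 had a signal of at most 9.2 in any array, and 3 of its 6 signals were under 1 and set to 1, so that its estimate of 1.23 on the log2 scale has an interval of -0.79 to 3.25 and gives no direction.

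Without regard to the test, 4 of the 10 members had all spy-3 arrays above all wild type arrays and 1 had them below, while 5 overlapped. Over all probe sets these shares were 12.7% and 11.5%.

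Of 19 listed genes for the synthesis and trimming of xyloglucan, 5 were measured, all of the CSLC group, which makes the glucan backbone. CSLC04 was the 1 higher gene, 0 were lower and 4 did not pass. With so few measured genes this is 20.0% higher, against 2.64% higher and 3.13% lower over all probe sets. The signals of CSLC04 were 819.2, 801.8 and 881.0 in wild type and 1069.1, 1204.6 and 1079.1 in spy-3, so that the genotypes did not overlap (1.34-fold, adjusted p = 0.0137 from limma). The call was lost without wild type replicate 1, wild type replicate 2 or spy-3 replicate 3, when the count was 0. CSLC5 also had all spy-3 arrays above wild type, but with a log2 fold change of 0.32 it did not pass (adjusted p = 0.115 from limma). Over all probe sets, 12.7% had all spy-3 arrays above all wild type arrays.

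Of 36 listed expansin genes, 19 were measured, of which 2 were higher, 2 were lower and 15 did not pass, with a median log2 fold change of -0.11. This is 10.5% in each direction, against 2.64% higher and 3.13% lower over all probe sets. EXPA15 was 1.73-fold higher (adjusted p = 0.000524 from limma) and EXPB3 was 1.70-fold higher (adjusted p = 0.00262 from limma). The 2 lower genes were EXPA7 and EXPA18, which act in root hairs and are also on the root hair list, at -0.44 and -0.29 on the log2 scale (limma, adjusted p = 0.00274 and 0.018). The lower count was 1 when spy-3 replicate 2 or any 1 of the wild type arrays (replicate 1, 2 or 3) was left out. The 4 listed touch genes, TCH4 among them, were not matched to a probe set by the annotation and are not analysed here.

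**Figure D3:**
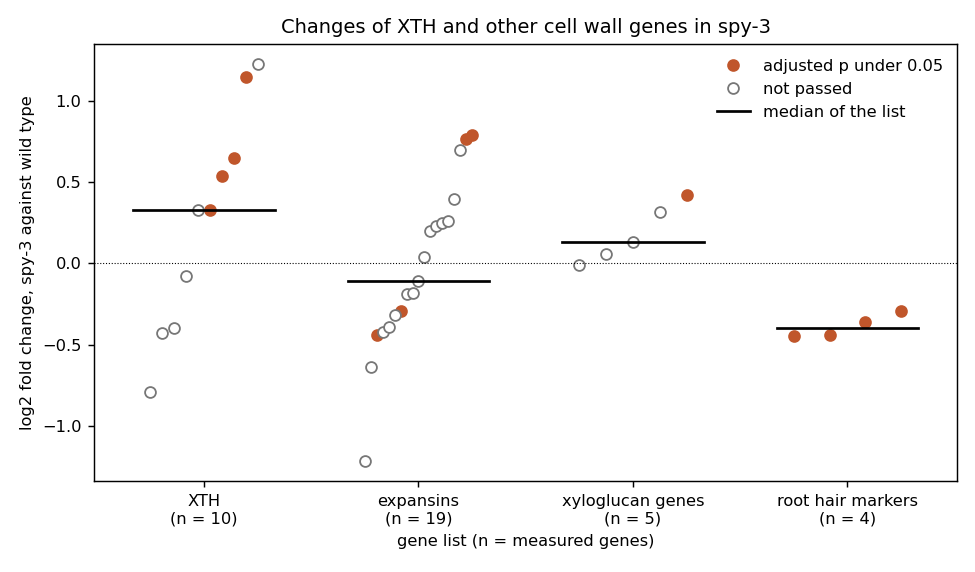
Log2 fold change (spy-3 against wild type, vertical axis) of each measured gene in 4 lists, with filled points at an adjusted p under 0.05 from limma and a line at the median of the list. The medians are 0.33 for 10 XTH genes, -0.11 for 19 expansin genes, 0.13 for 5 xyloglucan genes and -0.40 for 4 root hair markers; EXPA7 and EXPA18 are in both the expansin and the root hair list.

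Of 5 measured markers of green tissue, endodermis and cortex, 1 was lower on the same arrays and 4 did not pass. Over all probe sets, 3.13% were lower. The green tissue gene RCA, for Rubisco activase, was the lower 1 (log2 fold change -0.57, adjusted p = 0.0027 from limma), and the summed signal of the 3 measured green tissue genes of 8 listed was 436.5 to 478.6 in wild type and 293.5 to 326.6 in spy-3. PRK and SBPASE did not pass (adjusted p = 0.948 and 0.393 from limma). Most of the green tissue sum came from RCA, with a mean signal of 429.3 in wild type and 289.6 in spy-3. PRK had means of only 6.6 and 8.37, and SBPASE of 23.4 and 10.5. That sum therefore describes mainly RCA and not green tissue genes as a set. The 2 measured genes of 7 listed for endodermis and cortex had summed signals of 270.7 to 279.6 in wild type and 207.7 to 218.4 in spy-3. Both had all spy-3 arrays below all wild type arrays, as did 11.5% of all probe sets, and neither passed. The log2 fold change was -1.35 for AT1G62500 (adjusted p = 0.0517 from limma) and -0.19 for AT1G09750 (adjusted p = 0.1 from limma). No measured marker of either list was at 0 in all arrays. Their part in the XTH signals was not tested.

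The calls of the XTH genes under the settings tried separate XTH18, XTH19 and XTH33 from the rest. Each of the 3 passed an adjusted p of 0.05 in all 15 alternatives, with highest values of 0.0224 for XTH18, 0.0179 for XTH19 and 0.0226 for XTH33. XTH16 passed in 6 of 15. No other member passed in any alternative, the nearest being XTH21 at 0.0504 with dim probe sets left out.

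**Figure D4:**
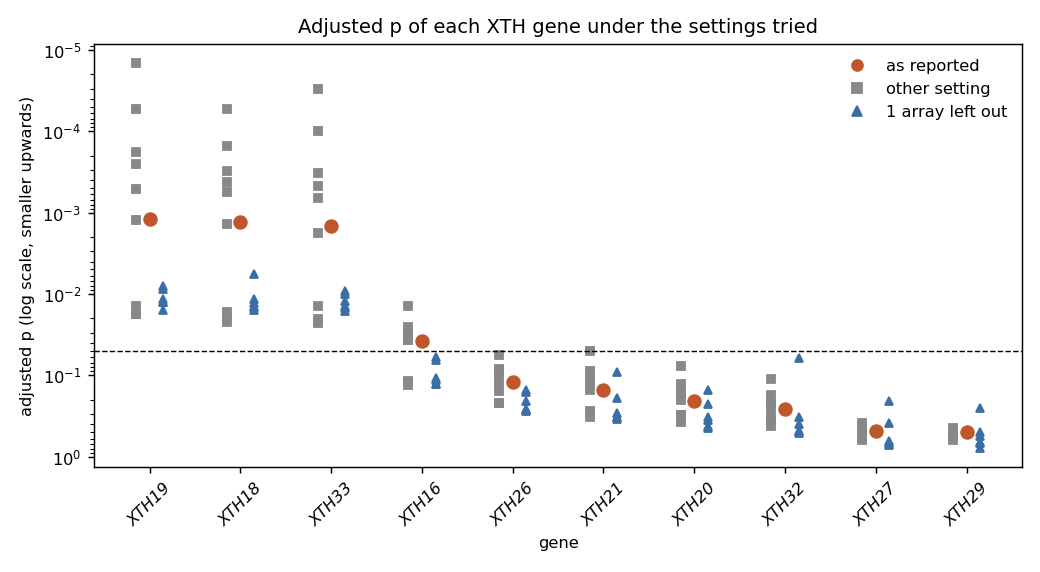
Adjusted p (log axis, smaller values upwards) of each XTH gene as reported (circles), under other settings (squares) and with 1 array left out (triangles), with a dashed line at 0.05. XTH19, XTH18 and XTH33 lie on the passing side under every setting, XTH16 lies on both sides, and the other 6 genes lie on the side that did not pass.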

How the data were processed

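Root RNA of 6 samples was hybridized to Affymetrix ATH1 arrays. The deposited values are intensity signals that the authors computed with MAS5, according to the submitters' processing notes. The MAS5 version is not given in the sources used here. The arrays share 1 mean by the authors' scaling, which removes any overall difference in brightness, and precision is limited by the number of arrays. The log2 of each signal was taken, after raising signals under 1 to 1, and no other normalization or filter was used. The fit of spy-3 against wild type was made in limma 3.58.1 (R 4.3.3; lmFit, then eBayes with a mean-variance trend). Benjamini-Hochberg adjustment ran over all 22746 probe sets. The analysis of variance that the methods name was run for single probe sets as an alternative.

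Names came from the platform annotation, updated through the RefSeq gene table of TAIR10.1, whose coordinates served only to order genes. Of 13513 probe sets with a single gene, 13436 could be assigned a locus. Where a gene had several, the brightest probe set was taken. All XTH members are named, with up to 4 genes of lowest adjusted p from each other list. The members and lists were chosen with earlier results of these data known. Python 3.11.15, pandas 2.3.3 and matplotlib 3.10.9 were used for tables and plots. Alternatives were quantile normalization, median centring, offsets of 16 and 64, removal of the dimmest 40% of probe sets, other variance models, a replicate block, a stricter threshold and leaving out each array.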

Additional observations from a re-analysis of the deposited data

How the results depend on the processing

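All 10 XTH genes kept the sign of their estimate in every alternative in which they were tested. The number of higher XTH genes was 2 when a 1.5-fold change with an adjusted p under 0.01 was asked for, and 3 with any 1 array left out; no alternative gave a lower XTH gene. The median log2 fold change of the members was 0.17 with an offset of 64, and 0.28 to 0.39 with 1 array left out. With the offset of 64, the estimate of the very dim gene XTH29 was 0.06, against 1.23 as reported. Those of XTH16 and XTH21 were 0.27 each, against 0.33 as reported. Over all probe sets, higher and lower counts were 268 and 374 without the trend, 287 and 371 by the analysis of variance, 99 and 182 at the stricter threshold, and 203 to 377 and 312 to 496 with 1 array left out. Higher expansins numbered 4 with an offset of 16 or 64, without the dimmest 40% of probe sets or with robust variances, and 2 to 3 with 1 array left out; lower ones numbered 1 by the analysis of variance, 0 at the stricter threshold and 1 to 2 with 1 array left out. Higher xyloglucan genes numbered 2 without the dimmest probe sets, 0 without the trend, by the analysis of variance, with the replicate block or at the stricter threshold, and 0 to 1 with 1 array left out. The alternatives for these 2 lists were added after the data were seen. The cause of these differences was not tested.

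The deviations of arrays with the same replicate number correlated at r = 0.18, -0.15 and 0.18 across the brighter probe sets. Arrays of unlike number gave -0.34 to 0.25. With so few arrays, this cannot decide if arrays of the same number share a harvest or a batch. With the replicate block, 265 probe sets were higher and 391 lower, and XTH16 did not pass (adjusted p = 0.132 from limma), while XTH18, XTH19 and XTH33 did (0.0196, 0.0141 and 0.0226). XTH26 and XTH29 were among the dimmest 40% and have no value there. Each member has 1 probe set, so the comparison of several probe sets of a gene gave no value.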

Other observations

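Some arrays stood at the edge of their genotype for several XTH genes. Wild type replicate 3 had the lowest wild type signal for 5 of the 10 members (XTH20, XTH21, XTH26, XTH27 and XTH32), and wild type replicate 2 had the highest for 5 (XTH16, XTH20, XTH21, XTH26 and XTH32). In spy-3, replicate 1 had the highest mutant signal for 5 members (XTH16, XTH26, XTH27, XTH32 and XTH33). In the remaining cases an array was the lowest or the highest of its genotype for 2 to 4 members. With 3 arrays per genotype, 1 array is always the lowest and 1 the highest for a gene. These counts were not taken over all probe sets.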
